A study of Mus musculus with 6 samples.

Results

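The genes described here are the enzymes that write or erase marks on histones and DNA, in neutrophils sorted from peripheral blood (PB) of mice with and without ligature-induced periodontitis (LIP). They were chosen by name as the protein-coding genes whose symbol is one of the stems Kdm, Kmt, Kat, Hdac, Sirt, Setd, Prmt, Dnmt, Tet or Ezh followed by a number and at most 1 letter, which 78 of the 29097 genes in the table met. Names of the stems Kmt, Kat, Setd, Prmt, Dnmt and Ezh were counted as writers (39 genes) and names of the stems Kdm, Hdac, Sirt and Tet as erasers (39 genes). All mice were 8-week-old male C57BL/6 mice, and 3 libraries came from controls (Ctrl) and 3 from mice at 14 d of LIP, the group labelled Lig for its ligature. Each library pooled sorted neutrophils of 5 mice, so the spread among libraries is a spread among pools and not among single mice. Full-length complementary DNA was made by Smart-seq2 and amplified without molecular identifiers.

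Writers place chemical groups on histone tails or on cytosines, and erasers take them off. Lysine methyltransferases (Kmt, Setd, Ezh) and demethylases (Kdm) act on histone methylation, acetyltransferases (Kat) and deacetylases (Hdac, Sirt) on acetylation, Prmt enzymes on arginine, and Dnmt and Tet enzymes on DNA methylation. Several enzymes with these names act mainly on other proteins or outside the nucleus, and neutrophils are short-lived, non-dividing cells with compact, lobed nuclei whose chromatin can be released as neutrophil extracellular traps (NETs).

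The libraries held 52186555 to 57262379 counts. Levels per library are given below as TMM-normalised CPM, which is scaled to the size of the library and not corrected for gene length, and levels compared between genes as FPKM, which does. Differences are log2 fold changes of LIP over Ctrl from edgeR's quasi-likelihood test on the counts, with Benjamini-Hochberg adjusted p-values over the 10440 genes whose FPKM averaged 1 or more over the 6 libraries, and a gene is said to rise or fall only with an adjusted p under 0.05. Of these 10440 genes, 26.5% rose, 27.2% fell, 53.6% changed in either direction and 63.4% had all 3 LIP libraries on one side of all 3 Ctrl libraries, which is called no overlap below. The marker lists of other cells also differed between the groups. All 15 B cell markers fell, with a summed level of 18922 to 20902 CPM in Ctrl and 3913 to 3936 CPM in LIP, all 15 T cell markers fell (886 to 933 against 182 to 217 CPM), and so did all 9 erythroid markers tested of 12 (129770 to 138141 against 17586 to 18327 CPM). The 21 mature neutrophil markers all rose, from 16273 to 17799 CPM in Ctrl to 61007 to 65841 CPM in LIP. Platelet markers rose in 8 of 8, monocyte and dendritic cell markers in 7 of 7 tested, NK cell markers in 3 of 7, eosinophil and basophil markers in 1 of 5 and immature neutrophil markers in 4 of 7. In such bulk libraries fewer cells of a type and less RNA per cell cannot be told apart, and the part of these other cells in the results below was not tested.

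**Figure D1:**
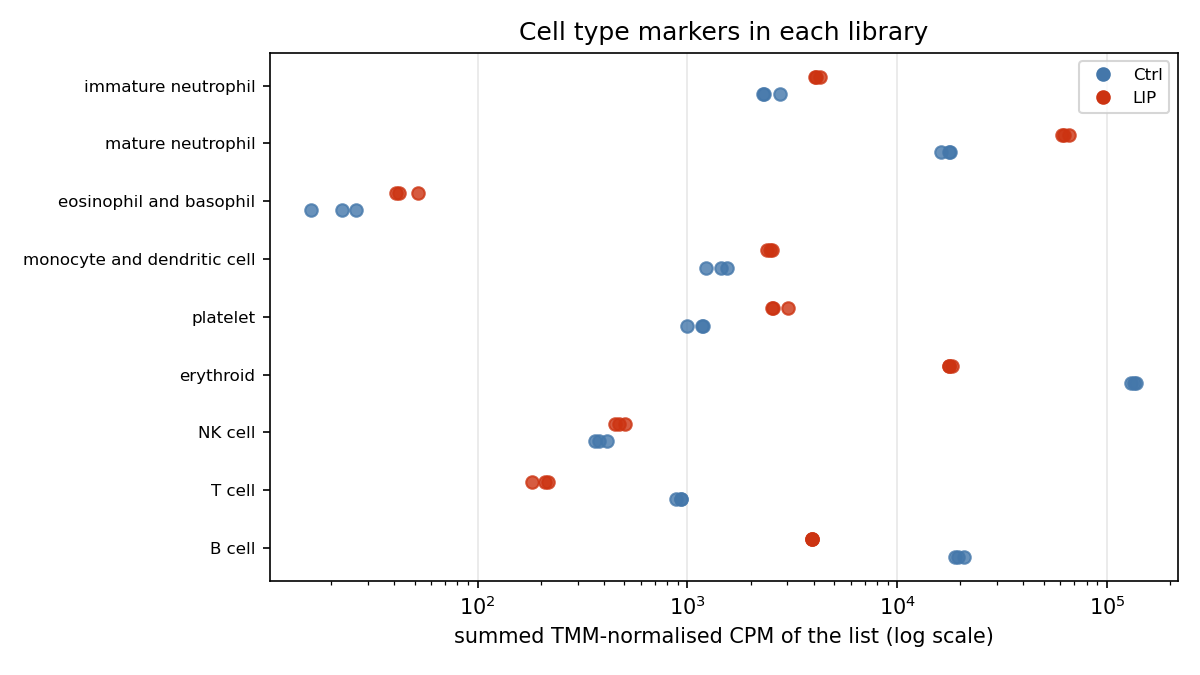
Summed TMM-normalised CPM of each cell type marker list (log axis) in the 3 Ctrl and 3 LIP libraries, 1 point a library. B cell, T cell and erythroid markers sat lower in every LIP library, and mature neutrophil markers sat higher.

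On the TMM scale erasers moved in both directions in LIP, whereas every writer that changed in edgeR's test fell. The difference between the 2 sets was not tested. Erasers rose in 26.7% and fell in 26.7% of those tested, and writers fell in 28.1%. These shares are near the 26.5% that rose and the 27.2% that fell among all genes tested. Only the 0% of writers that rose lay apart from them. Of the 78 enzymes, 62 passed the minimum of 1 FPKM and were tested, and 8 of them rose (12.9%) and 17 fell (27.4%), so the share that fell was near that of all genes tested. Of the 17, 4 were tested only because their Ctrl mean was high enough, and they are listed below. The share of enzymes called in either direction was 40.3%, against 53.6% of all genes tested. Of the 62, 32 (51.6%) had no overlap between the groups, against 63.4% of all genes tested. The counts per name stem below stand beside these all-gene shares, and no stem was tested as a set. Among 30 erasers tested, 8 rose, namely the demethylases *Kdm5b*, *Kdm6b* and *Kdm7a*, the deacetylases *Hdac4*, *Hdac5*, *Sirt2* and *Sirt7*, and the DNA dioxygenase *Tet2*, and 8 fell. Among 32 writers tested, 0 rose and 9 fell in edgeR's quasi-likelihood test, and at an unadjusted p under 0.05 the counts were 2 higher and 12 lower. DESeq2 called 2 writers higher, *Kat2b* and *Kmt5b*, and edgeR without Ctrl replicate 3 called 1, *Kmt5b* (log2 fold change 0.53, adjusted p = 0.0431). Both names fall outside the rule for named genes and were chosen after their values were seen.

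The median log2 fold change was −0.32 for the writers, with a range of −1.46 to 0.62, and −0.02 for the erasers, with a range of −1.46 to 1.52. Over all 10440 genes it was −0.09. These counts and medians depend on how libraries are scaled and on which genes are kept. Without a filter on level the median was −0.28 for writers, −0.23 for erasers and −0.25 for all genes. With edgeR's filterByExpr it was −0.24, −0.22 and −0.14. In both fits the medians of writers and erasers lay close together, unlike in the main fit. With library totals in place of TMM, the median of all genes moved to −0.42 and those of writers and erasers to −0.64 and −0.34, and 1919 genes of all rose and 4146 fell, with 0 writers higher and 16 lower, and 6 erasers higher and 11 lower. On the FPKM values with limma and a pseudocount of 1, 6 enzymes rose and 28 fell. Scaling on the mature neutrophil markers moved the median of all genes to −1.86 and left 0 enzymes higher and 61 lower, all but *Hdac4*.

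The contrast between writers and erasers was then measured inside each library, where the scaling of the library drops out. The mean log2(CPM + 0.5) of the 32 tested writers less that of the 30 tested erasers was −0.50, −0.36 and −0.30 in the Ctrl libraries and −0.82, −0.71 and −0.78 in the LIP libraries. All 3 LIP libraries were below all 3 Ctrl libraries, with means of −0.39 ± 0.103 and −0.77 ± 0.0558 (SD, n = 3 each). The writers' own mean was 4.66 ± 0.0827 in Ctrl and 4.24 ± 0.0507 in LIP on this TMM scale, and the erasers' mean was 5.05 ± 0.107 in Ctrl and 5.01 ± 0.0520 in LIP. Of the 62 enzymes, 8 were tested only because their Ctrl mean was high enough. As the members were chosen with earlier results of these data known, these means carry no test.

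**Figure D2:**
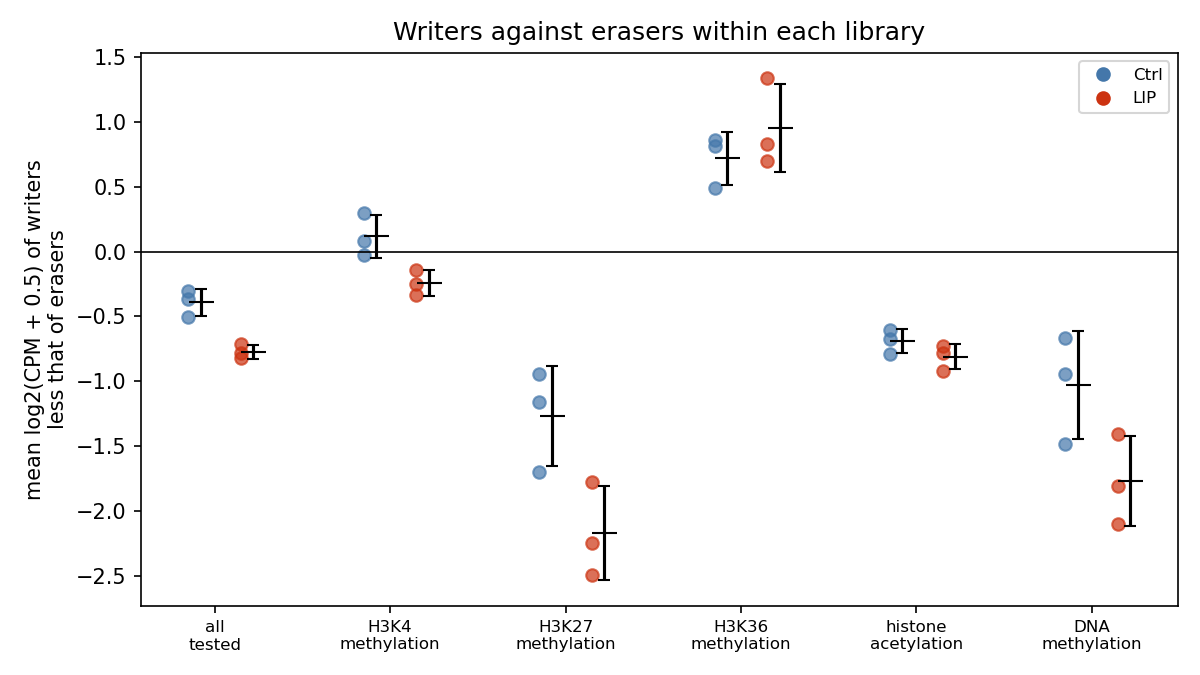
Mean log2(CPM + 0.5) of tested writers less that of tested erasers in each library, for all marks and for 5 marks, with points for the libraries and crosses for the mean and SD (n = 3 each). The groups do not overlap for all tested enzymes, H3K4 methylation and H3K27 methylation, and overlap for H3K36 methylation, histone acetylation and DNA methylation. *Ezh2*, a writer of H3K27 methylation, was tested only because its Ctrl mean was high enough. So were the erasers *Kdm1b* (H3K4 methylation), *Kdm2b* (H3K36 methylation) and *Hdac7* (histone acetylation).

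By mark, the writers of H3K4 methylation stood 0.12 ± 0.164 above its erasers in Ctrl and −0.24 ± 0.0986 in LIP on the same log2 scale, with no overlap (SD, n = 3 each). The lowest Ctrl library, at −0.03, was close to the highest LIP library, at −0.14. Of its erasers, *Kdm1b* was tested only because its Ctrl mean was high enough. For H3K27 methylation, with only *Ezh1* and *Ezh2* against *Kdm6a* and *Kdm6b*, the difference was −1.69, −0.94 and −1.16 in the Ctrl libraries and −2.49, −1.77 and −2.25 in the LIP libraries. Each enzyme was counted under a single mark, so *Kdm7a*, counted under H3K9 methylation, is not among them. The lowest Ctrl library and the highest LIP library were here also close to each other. *Ezh2* was tested only because its Ctrl mean was high enough, at 1.83 FPKM against 0.87 FPKM in LIP. No conclusion is drawn from this contrast. The groups overlapped for histone acetylation (−0.69 ± 0.0922 against −0.81 ± 0.0976), for DNA methylation (−1.03 ± 0.416 against −1.77 ± 0.345) and for H3K36 methylation (0.72 ± 0.201 against 0.95 ± 0.338). Among the erasers of histone acetylation, *Hdac7* was tested only because its Ctrl mean was high enough. For DNA methylation only 2 writers stood against 2 erasers. For H3K36 methylation 1 writer, *Setd2*, stood against 5 erasers, of which *Kdm2b* was tested only because its Ctrl mean was high enough. Without the enzymes that act mainly on other substrates or in other places, 0 of 27 writers rose in edgeR's test and 8 fell, and 8 of 27 erasers rose and 7 fell.

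**Figure D3:**
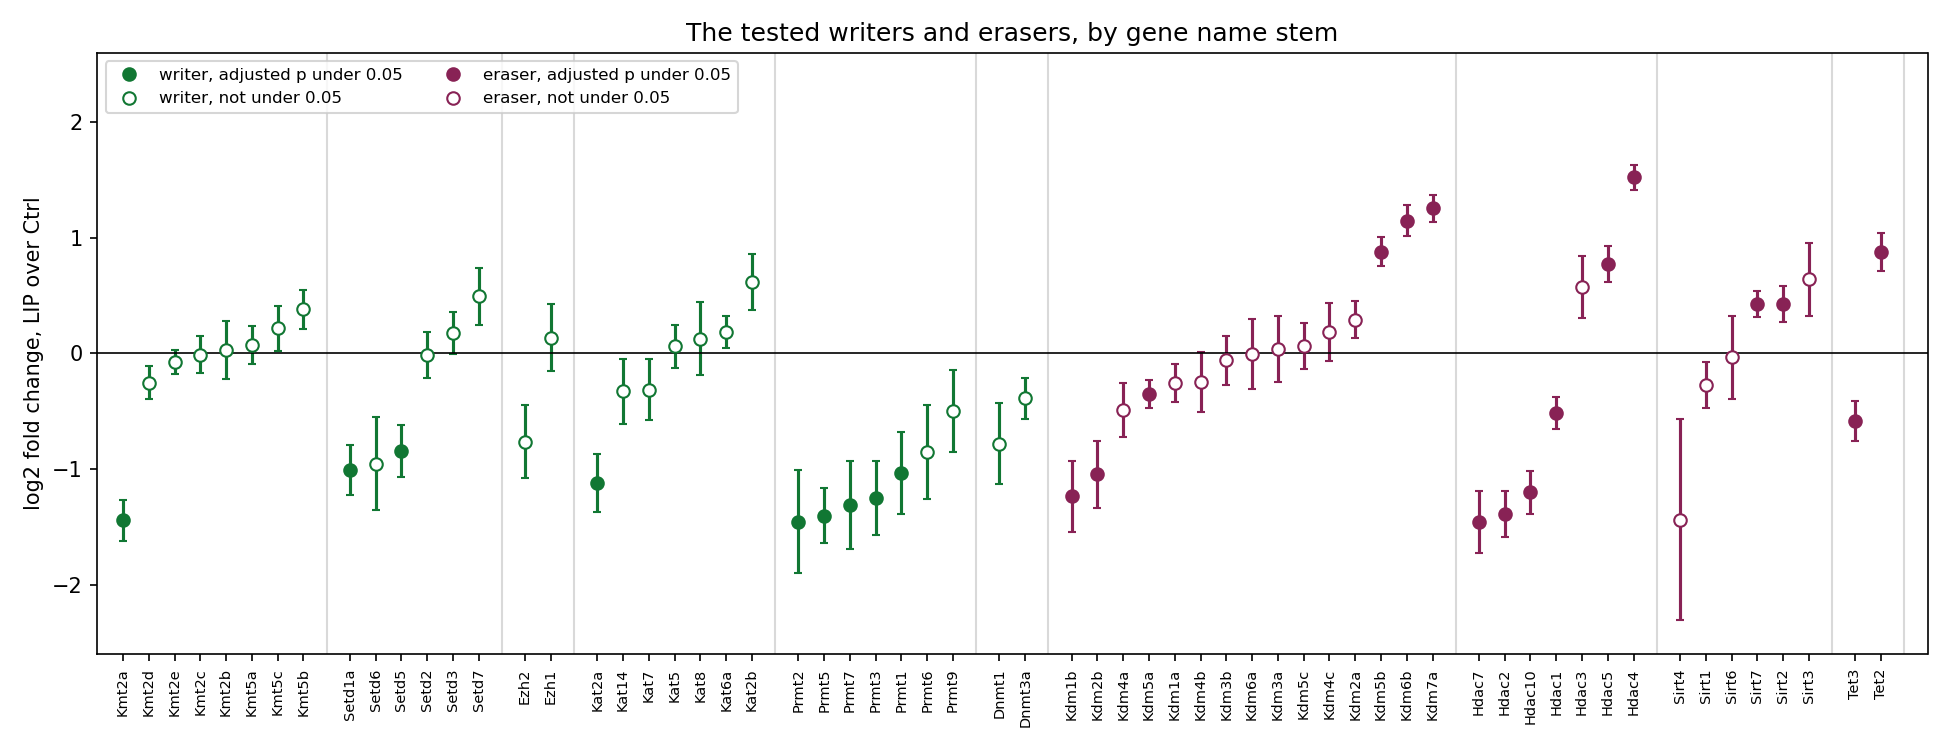
Log2 fold change of LIP over Ctrl with its SE for the 62 tested enzymes, grouped by name stem, writers in green and erasers in purple, filled where the adjusted p was under 0.05. On this TMM scale filled green points all lie below 0, and filled purple points lie on both sides.

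The largest rises were those of the deacetylase *Hdac4* and the demethylases *Kdm7a* and *Kdm6b*. *Hdac4* (ENSMUSG00000026313, chr1:91928779-92195699 in GRCm38), a class IIa deacetylase that is shuttled between nucleus and cytoplasm, had 104, 125 and 115 CPM in Ctrl and 313, 341 and 336 CPM in LIP. The lowest LIP library was far above the highest Ctrl library, and the log2 fold change of 1.52 (SE 0.109, adjusted p = 1.68e-06) was the largest rise of the 62. Its call was lost under scaling on the mature neutrophil markers, where the log2 fold change was −0.24. Its class IIa relative *Hdac5* had 38.3, 28.8 and 37.2 CPM in Ctrl and 62.2, 55.2 and 61.1 CPM in LIP. Every LIP value again exceeded every Ctrl value (log2 fold change 0.78, SE 0.155, adjusted p = 0.00186), and the call was lost with limma on log2(FPKM + 0.1) (adjusted p = 0.0508). *Hdac7*, the third class IIa member tested, fell instead, from 25.7, 20.7 and 20.1 CPM to 8.28, 10.2 and 5.70 CPM (log2 fold change −1.46, SE 0.270, adjusted p = 0.00113). *Hdac7* was tested only because its Ctrl mean was high enough, at 3.38 FPKM against 0.990 FPKM in LIP. No conclusion on class IIa as a whole is drawn from its fall. It overlaps *Slc48a1* on the other strand, so its reads are uncertain there. *Hdac9*, the remaining class IIa gene, had a mean of 0.890 FPKM and was not tested. It had 23.8, 18.8 and 23.6 CPM in Ctrl and 2.07, 6.71 and 4.58 CPM in LIP with no overlap, and a fit without the filter gave a log2 fold change of −2.27 (edgeR, adjusted p = 0.00591). *Hdac9* was named after its values were seen.

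Class I deacetylases, the catalytic cores of nuclear corepressor complexes, fell in 2 of the 3 tested. *Hdac1* had 85.4, 105 and 89.1 CPM in Ctrl and 58.9, 73.7 and 62.9 CPM in LIP. The highest LIP library stayed below the lowest Ctrl library (log2 fold change −0.51, SE 0.138, adjusted p = 0.00972), though the call was lost in a fit without the filter (adjusted p = 0.0528). *Hdac2*, its close paralog, fell from 26.2 to 31.2 CPM to 9.97 to 12.1 CPM (log2 fold change −1.39), whereas *Hdac3* did not pass (log2 fold change 0.58, adjusted p = 0.0909) with 9.68 to 13.5 CPM in Ctrl and 13.8 to 23.1 CPM in LIP. *Hdac10*, which acts mainly on polyamines in the cytoplasm, fell by 1.20. Thus 2 of 7 Hdac genes tested rose and 4 fell. Of the 4, *Hdac7* was tested only because its Ctrl mean was high enough. All 7 had no overlap between the groups, as did 63.4% of all genes tested.

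Among the NAD-dependent sirtuins, 2 of 6 tested rose and 0 fell in edgeR's test. *Sirt7*, a nucleolar deacetylase, had 125, 129 and 149 CPM in Ctrl and 180, 183 and 179 CPM in LIP. The LIP libraries sat within a narrow band above the Ctrl libraries (log2 fold change 0.43, SE 0.109, adjusted p = 0.00752). *Sirt2*, a mostly cytoplasmic deacetylase, had 42.8, 52.2 and 37.1 CPM in Ctrl and 61.9, 60.0 and 56.0 CPM in LIP (log2 fold change 0.43, SE 0.155, adjusted p = 0.0386). This call was weak, as it held in only 1 of the 6 fits that left out a library, the one without Ctrl replicate 2, and the adjusted p was 0.0583 to 0.152 without any of the other five. Both sirtuin calls were also lost with library totals, with log2 fold changes still above 0. They were lost as well at a minimum of 5 FPKM and in both limma fits, and that of *Sirt2* also without a filter.

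The demethylases (Kdm) gave 3 rises and 3 falls among 15 tested. *Kdm7a* (ENSMUSG00000042599, chr6:39136623-39206789), which removes methyl groups from H3K9 and H3K27, had 80.7, 75.1 and 94.8 CPM in Ctrl and 199, 203 and 196 CPM in LIP. The LIP libraries agree closely with each other and lie far above the Ctrl libraries (log2 fold change 1.26, SE 0.120, adjusted p = 1.13e-05). *Kdm6b* (ENSMUSG00000018476, chr11:69398508-69413675), the inducible H3K27 demethylase known for its response to inflammatory stimuli in myeloid cells, had 103, 80.1 and 96.4 CPM in Ctrl and 217, 181 and 223 CPM in LIP. Again the groups did not overlap (log2 fold change 1.15, SE 0.135, adjusted p = 5.01e-05), and the gene overlaps *Kdm6bos* on the other strand. *Kdm6a*, its X-linked paralog, had 40.0, 17.4 and 24.2 CPM in Ctrl and 32.7, 19.9 and 28.7 CPM in LIP. These values are interleaved (log2 fold change −0.01, SE 0.302, adjusted p = 0.989). No test was made of the difference between the paralogs.

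Of the 5 H3K4 demethylases tested, 1 rose and 2 fell. The most abundant of them, *Kdm1a* at 6.64 FPKM, did not pass (log2 fold change −0.26, adjusted p = 0.206). *Kdm5b* had 70.6, 64.6 and 59.1 CPM in Ctrl and 128, 110 and 120 CPM in LIP, without overlap (log2 fold change 0.88, SE 0.124, adjusted p = 0.000184). *Kdm1b*, a flavin-dependent demethylase, had 17.7, 11.3 and 11.5 CPM in Ctrl and 4.82, 5.18 and 7.18 CPM in LIP (log2 fold change −1.24, SE 0.309, adjusted p = 0.00667). Both groups are low and separate, and the gene overlaps *Dek* on the other strand. *Kdm1b* was tested only because its Ctrl mean was high enough, at 2.53 FPKM against 0.86 FPKM in LIP. *Kdm5a* fell by 0.35, a call kept only without Ctrl replicate 2, with adjusted p-values of 0.0601 to 0.108 without any of the other five. *Kdm2b*, an H3K36 demethylase that overlaps *Rnf34*, fell by 1.05, with an adjusted p of 0.0659 without Ctrl replicate 3. It too was tested only because its Ctrl mean was high enough. *Kdm5d*, the Y-linked homologue of *Kdm5c*, was under the minimum level, with 13.9, 11.0 and 17.6 CPM in Ctrl and 4.22, 6.18 and 10.7 CPM in LIP. The highest LIP library lay just below the lowest Ctrl library. *Kdm5c* had 18.5 to 21.6 CPM in Ctrl and 18.6 to 24.5 CPM in LIP and did not pass, and reads of such near-identical homologues may be shared. *Kdm1a*, *Kdm5a*, *Kdm5b* and *Kdm2b* were named after their values were seen.

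Of the arginine methyltransferases named Prmt, 5 of 7 tested fell and 0 rose in edgeR's test, with a median log2 fold change of −1.25 and a range of −1.46 to −0.49. *Prmt6* and *Prmt9*, which did not pass, were tested only because their Ctrl mean was high enough. Their negative values enter this median and range, and −0.49 is that of *Prmt9*. *Carm1*, an arginine methyltransferase without that name, had 9.77 to 12.03 CPM in Ctrl and 6.78 to 13.6 CPM in LIP and did not pass (log2 fold change −0.22, adjusted p = 0.571). It overlaps *Yipf2* on the other strand. *Prmt5* (ENSMUSG00000023110, chr14:54507187-54517525), the main enzyme of symmetric arginine dimethylation, had 28.8, 31.6 and 27.9 CPM in Ctrl and 8.38, 14.3 and 10.7 CPM in LIP. The groups were far apart (log2 fold change −1.40, SE 0.236, adjusted p = 0.000605). *Prmt2* had 12.02, 9.63 and 16.4 CPM in Ctrl and 1.95, 4.61 and 7.31 CPM in LIP (log2 fold change −1.46, SE 0.448, adjusted p = 0.0190). It lost its call without Ctrl replicate 3 (adjusted p = 0.0779) and without LIP replicate 2 (adjusted p = 0.0511). *Prmt3* fell by 1.25, *Prmt7* by 1.31 and *Prmt1*, the main enzyme of asymmetric dimethylation, by 1.03. *Prmt7* lost its call without Ctrl replicate 1 (adjusted p = 0.0507), and *Prmt1* lost it without Ctrl replicate 2 or 3 or LIP replicate 2 or 3 (adjusted p = 0.0894 to 0.0966). *Carm1*, *Prmt1*, *Prmt3* and *Prmt7* were named after their values were seen. The median level of the Prmt genes was 2.14 FPKM, below the 3.46 FPKM of all tested enzymes.

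Of the lysine methyltransferases named Kmt, *Kmt2a* was the only one of 8 to change in edgeR's test. *Kmt5b*, which DESeq2 called higher, did not pass there (log2 fold change 0.38, adjusted p = 0.0813). *Kmt2a* (ENSMUSG00000002028, chr9:44803355-44881296), the H3K4 methyltransferase that maintains *Hox* gene expression in blood progenitors, had 78.8, 62.7 and 72.5 CPM in Ctrl and 23.3, 23.2 and 32.0 CPM in LIP. Every LIP library was below every Ctrl library (log2 fold change −1.45, SE 0.173, adjusted p = 5.90e-05). *Kmt2e*, a reader-like relative with no clear methyltransferase activity, was the most abundant of the writers at 24.6 FPKM and had 276, 313 and 256 CPM in Ctrl against 279, 265 and 260 CPM in LIP. These values are interleaved (log2 fold change −0.07, SE 0.106, adjusted p = 0.579), and the gene overlaps *Srpk2* on the other strand. The related *Kmt2b*, *Kmt2c* and *Kmt2d* had log2 fold changes of 0.03, −0.01 and −0.25 and did not pass.

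The Setd genes gave 2 falls and no rises among 6 tested in edgeR's test. *Setd1a*, another H3K4 methyltransferase, had 19.2, 24.9 and 25.8 CPM in Ctrl and 11.96, 11.0 and 11.8 CPM in LIP (log2 fold change −1.01, SE 0.215, adjusted p = 0.00270). Its LIP values lie close together and below all Ctrl values. *Setd5* had 24.5, 21.7 and 32.5 CPM in Ctrl and 16.9, 13.8 and 12.98 CPM in LIP (log2 fold change −0.85, SE 0.225, adjusted p = 0.00926), and lost its call without Ctrl replicate 3 (adjusted p = 0.0569). It was tested only because its Ctrl mean was high enough, at 1.47 FPKM against 0.66 FPKM in LIP. *Setd2*, which trimethylates H3K36, had 61.5, 44.2 and 47.3 CPM in Ctrl and 63.7, 39.4 and 48.7 CPM in LIP. It was interleaved (log2 fold change −0.01, SE 0.199, adjusted p = 0.968). *Setd3*, an actin histidine methyltransferase, was the most abundant Setd gene at 6.40 FPKM and also overlapped, with 30.3 to 45.0 CPM in Ctrl and 40.0 to 50.9 CPM in LIP (log2 fold change 0.18, adjusted p = 0.431).

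**Figure D4:**
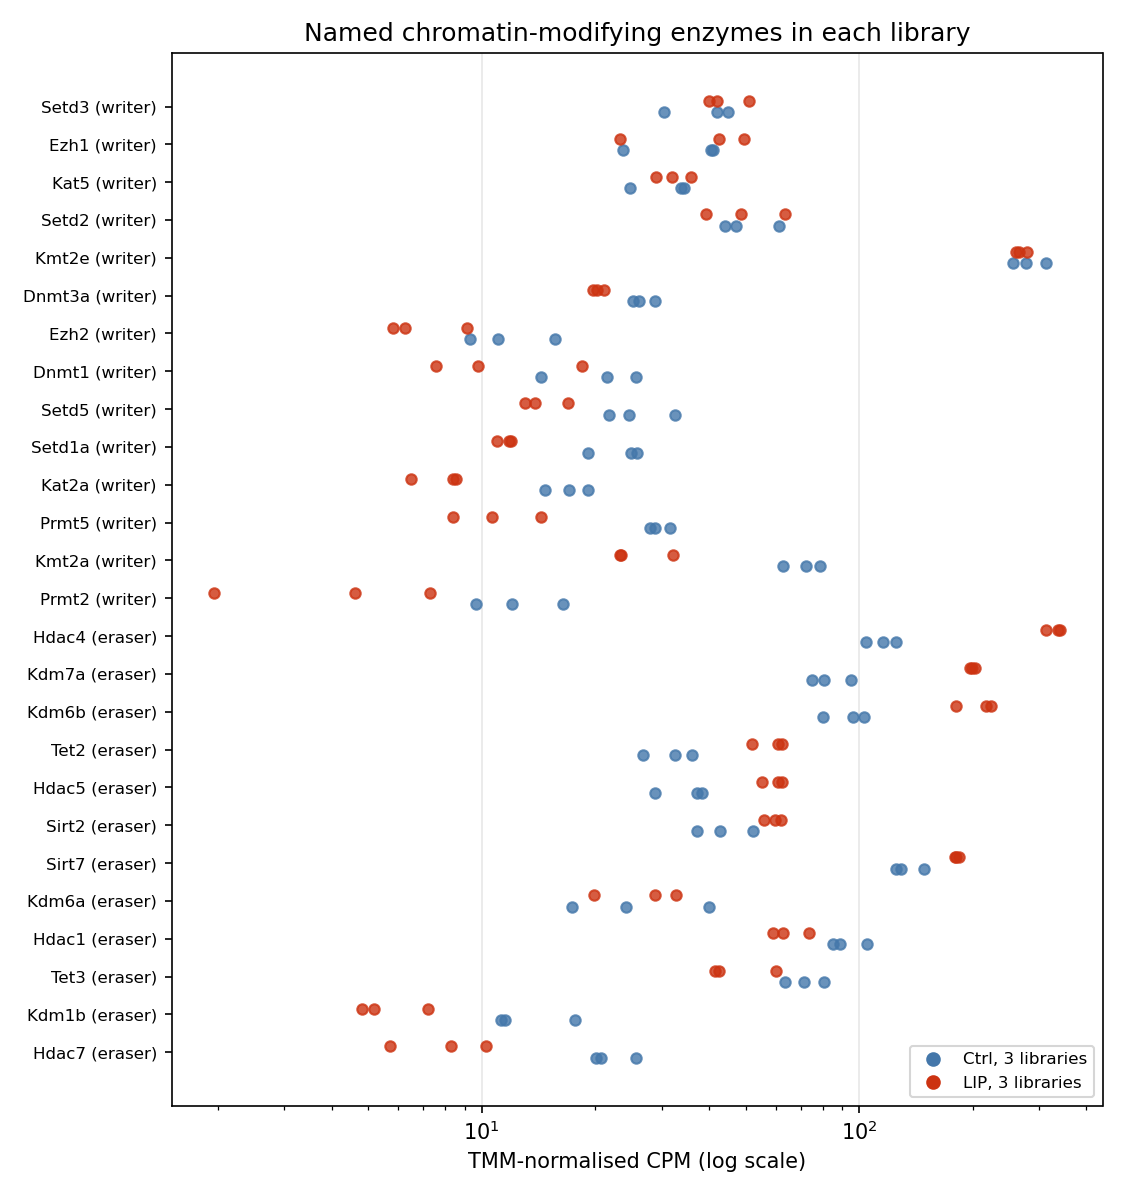
TMM-normalised CPM (log axis) of the named enzymes in the 3 Ctrl (blue) and 3 LIP (red) libraries, 1 point a library. *Hdac4*, *Kdm7a* and *Kdm6b* lie to the right of all Ctrl libraries in LIP, *Kmt2a* and *Prmt5* to the left, and *Kmt2e*, *Setd2* and *Kdm6a* are interleaved.

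The H3K27 methyltransferases of Polycomb repressive complex 2 did not pass the test. *Ezh2*, the form of dividing cells, had 9.32, 15.6 and 11.1 CPM in Ctrl and 9.15, 5.82 and 6.25 CPM in LIP. The groups just failed to overlap (log2 fold change −0.76, SE 0.314, adjusted p = 0.0621), and the gene was tested only because its Ctrl mean was high enough. *Ezh1*, the form of resting cells, had 40.4, 23.6 and 40.9 CPM in Ctrl and 23.3, 49.4 and 42.5 CPM in LIP (log2 fold change 0.13, SE 0.290, adjusted p = 0.714). Its values overlapped, and it stood above *Ezh2* in level, at 4.57 against 1.35 FPKM.

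Of the acetyltransferases, 1 of 7 tested fell and 0 rose in edgeR's test. *Kat2a*, the catalytic subunit of the SAGA and ATAC complexes, had 19.1, 14.7 and 17.0 CPM in Ctrl and 8.56, 8.37 and 6.48 CPM in LIP. The groups were separate (log2 fold change −1.12, SE 0.249, adjusted p = 0.00349). Its close paralog *Kat2b* had 9.001, 11.6 and 12.2 CPM in Ctrl and 19.6, 15.3 and 15.5 CPM in LIP, also separate, but missed the threshold (log2 fold change 0.62, SE 0.241, adjusted p = 0.0510). DESeq2 gave *Kat2b* an adjusted p of 0.0223. *Kat5*, the catalytic subunit of the TIP60 complex and the most abundant Kat gene at 8.32 FPKM, had 24.6 to 34.3 CPM in Ctrl and 28.9 to 35.8 CPM in LIP (log2 fold change 0.06, adjusted p = 0.799). It overlaps *Rnaseh2c* on the other strand.

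For DNA methylation, the methyltransferases did not pass and the Tet dioxygenases moved in opposite directions. *Dnmt1*, the maintenance enzyme, had 21.5, 14.4 and 25.6 CPM in Ctrl and 7.56, 9.74 and 18.5 CPM in LIP (log2 fold change −0.78, SE 0.350, adjusted p = 0.0825). One LIP library reached into the Ctrl range. *Dnmt3a*, a de novo enzyme, had 28.7, 25.1 and 26.0 CPM in Ctrl and 21.1, 20.2 and 19.7 CPM in LIP, without overlap (log2 fold change −0.39, SE 0.177, adjusted p = 0.0869). *Tet2* (ENSMUSG00000040943, chr3:133463679-133545139) had 32.5, 36.1 and 26.7 CPM in Ctrl and 52, 61.0 and 62.3 CPM in LIP. All LIP libraries were higher (log2 fold change 0.88, SE 0.161, adjusted p = 0.00106). *Tet3* had 71.2, 80.8 and 63.4 CPM in Ctrl and 60.0, 41.4 and 42.4 CPM in LIP (log2 fold change −0.58, SE 0.173, adjusted p = 0.0162). One LIP library came close to the Ctrl range, and the call was lost without Ctrl replicate 2 (adjusted p = 0.0658), LIP replicate 2 (adjusted p = 0.0676) or LIP replicate 3 (adjusted p = 0.0609). *Tet3* stood above *Tet2* in Ctrl, at 4.43 against 1.94 FPKM, and below it in LIP, at 2.39 against 2.88 FPKM. *Tet1* was near 0, at 0.0918 FPKM.

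In level, 6 enzymes had a mean of at least 10 FPKM, namely *Sirt7* (28.1 FPKM), *Kmt2e* (24.6), *Hdac1* (21.8), *Kdm6b* (19.3), *Kdm7a* (12.5) and *Hdac4* (12.4). Erasers had a median of 4.39 FPKM and writers of 2.68 FPKM. Across the 62 tested enzymes the log2 fold change was correlated with log2 mean FPKM (Pearson's r = 0.40, Spearman's rho = 0.38), and across all 10440 genes tested the same correlation was weaker (r = 0.19, rho = 0.21). It was 0.32 (Pearson) with log2 counts per FPKM, a measure of transcript length. These correlations are across genes of the same 6 libraries, which share their depth and scaling, and are given as descriptions. At a minimum of 5 FPKM, 4 erasers rose and 4 fell, and 0 writers were called in either direction by edgeR, as the writers that fell were below that level.

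The 16 enzymes under the minimum were *Dnmt3b*, *Dnmt3c*, *Dnmt3l*, *Hdac6*, *Hdac8*, *Hdac9*, *Hdac11*, *Kat6b*, *Kdm4d*, *Kdm5d*, *Kdm8*, *Prmt8*, *Setd1b*, *Setd4*, *Sirt5* and *Tet1*. Of these, 4 had no overlap, *Hdac9*, *Hdac11*, *Kdm5d* and *Setd4*, and all 4 were lower in LIP. *Setd4* had 5.35, 3.74 and 5.47 CPM in Ctrl and 1.69, 2.20 and 1.21 CPM in LIP. A further 8 enzymes were tested only because their Ctrl mean was high enough, *Ezh2*, *Hdac7*, *Kdm1b*, *Kdm2b*, *Prmt6*, *Prmt9*, *Setd5* and *Sirt4*, and 4 of these are among the 17 that fell. 0 passed only through its LIP mean. These names were chosen for their level and not for a test.

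As the enzymes that moved include a rise and falls at genes with well-placed starts, their promoters are shown for *Kdm7a*, the second largest rise, and for *Kmt2a* and *Prmt5*, a pair of falls. They are the 250 bases before the start site in RefSeq for GRCm38.p6, 5′ to 3′ on the strand of the gene, with each CpG in capitals. All 3 genes are on the minus strand, and the windows are chr6:39206774-39207023 for *Kdm7a*, chr9:44881290-44881539 for *Kmt2a* and chr14:54517471-54517720 for *Prmt5*.
Kdm7a: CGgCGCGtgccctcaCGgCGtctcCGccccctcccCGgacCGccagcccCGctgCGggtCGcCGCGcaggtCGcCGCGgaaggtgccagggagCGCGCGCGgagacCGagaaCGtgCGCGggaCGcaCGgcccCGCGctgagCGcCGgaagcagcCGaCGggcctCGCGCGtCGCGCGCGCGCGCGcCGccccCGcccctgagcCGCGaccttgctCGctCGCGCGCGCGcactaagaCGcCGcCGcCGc
Kmt2a: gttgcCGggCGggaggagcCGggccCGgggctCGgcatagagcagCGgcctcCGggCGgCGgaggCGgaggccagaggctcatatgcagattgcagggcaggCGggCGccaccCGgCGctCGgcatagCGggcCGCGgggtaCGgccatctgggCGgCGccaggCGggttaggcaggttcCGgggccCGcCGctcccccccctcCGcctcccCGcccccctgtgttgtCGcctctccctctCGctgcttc
Prmt5: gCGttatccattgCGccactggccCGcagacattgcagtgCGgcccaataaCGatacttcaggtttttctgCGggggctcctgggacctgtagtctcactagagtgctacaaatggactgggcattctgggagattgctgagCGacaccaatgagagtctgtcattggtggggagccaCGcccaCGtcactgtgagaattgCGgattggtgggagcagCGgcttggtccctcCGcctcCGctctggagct

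The *Kdm7a* window held 56 CpG, the *Kmt2a* window 29 and the *Prmt5* window 13. The median ratio of observed to expected CpG was 0.755 over the 59 enzymes with a matched promoter, near the 0.737 over 9187 promoters of tested genes and above the 0.373 over all 32851 promoters. It was 0.853 for the 6 matched enzymes that rose and 0.748 for the 12 that fell. *Kdm6b* had no matched promoter.

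Both strands of these windows were searched for the letters of 4 elements bound by factors of inflammation and myeloid cells. The interferon response element core (GAAANNGAA) was in 1 of 59 enzyme promoters (1.69%) and in 6.67% of the promoters of tested genes. The STAT element (TTCNNNGAA) was in 3 (5.08% against 6.03%), the C/EBP element (TTGCNNAA) in 4 (6.78% against 8.16%) and the AP-1 element (TGANTCA) in 3 (5.08% against 4.77%). Among the 6 matched enzymes that rose, only *Sirt7* held any, and among the 12 that fell only *Prmt3* did. The 3 windows printed above held none of the 4. The letters alone do not show binding.

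The partners and relatives of these enzymes were taken from a list of 96 other chromatin genes. Of 83 tested, 18 rose (21.7%) and 24 fell (28.9%), against 26.5% and 27.2% of all genes tested, and the median log2 fold change was −0.20. The counts per list below stand beside these all-gene shares, and no list was tested as a set. Of the 83, 7 were tested only because their Ctrl mean was high enough, *Smyd5* and *Ash2l* among them, and 4 of these 7 are among the genes that fell. *Padi4*, the deiminase that citrullinates histones in NET formation, had 100, 63.1 and 77.5 CPM in Ctrl and 320, 281 and 314 CPM in LIP. The LIP libraries were all far higher (log2 fold change 1.92, SE 0.163, adjusted p = 4.86e-06). The median log2 fold change of the mature neutrophil markers was 1.84. Under scaling on those markers 0 other chromatin genes rose, so the call of *Padi4* was lost. Whether *Padi4* rose per neutrophil was not tested. The partners of the COMPASS H3K4 methyltransferases fell in 5 of 8, with 1 rise. Among them *Ash2l*, a core subunit, had 19.5, 24.7 and 22.0 CPM in Ctrl and 3.32, 12.6 and 8.96 CPM in LIP (log2 fold change −1.41, SE 0.403, adjusted p = 0.0134). The groups did not overlap.

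Of Polycomb repressive complex 2 partners, 2 of 7 rose and 3 fell, and *Rbbp7*, a histone-binding subunit that overlaps *Txlng*, had 89.3, 85.3 and 95.0 CPM in Ctrl and 38.4, 41.6 and 44.6 CPM in LIP (log2 fold change −1.11). Lysine methyltransferases with other names fell in 5 of 12 and rose in 1, with *Smyd5* at 16.3, 12.97 and 12.4 CPM in Ctrl and 0.0597, 2.96 and 1.84 CPM in LIP (log2 fold change −3.10, SE 0.830, adjusted p = 0.00957). Of histone deacetylase complex partners 4 of 12 rose and 1 fell, and *Sap30*, a Sin3 complex subunit, had 25.6, 35.4 and 30.1 CPM in Ctrl and 62.7, 64.8 and 55.1 CPM in LIP (log2 fold change 1.00). All LIP values were higher. Acetyltransferases with other names rose in 1 of 6, *Ep300* (log2 fold change 0.43, adjusted p = 0.0341), and acetyltransferase complex partners rose in 4 of 13 and fell in 3, among them *Mrgbp* (log2 fold change −1.46). Demethylases and deiminases with other names rose in 1 of 8, *Padi4*, and fell in 1.

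For DNA methylation, 1 of 8 partners rose and 4 fell, and *Cxxc5*, a CpG-binding protein, had 55.3, 72.9 and 59.8 CPM in Ctrl and 10.8, 9.21 and 13.03 CPM in LIP (log2 fold change −2.51, SE 0.195). Of enzymes that supply cofactors, 3 of 8 rose and 2 fell, and *Ahcy*, which clears the methyltransferase product S-adenosylhomocysteine, had 11.2, 13.1 and 11.7 CPM in Ctrl and 3.52, 3.22 and 3.94 CPM in LIP (log2 fold change −1.75, SE 0.286, adjusted p = 0.000507). In both genes the groups were well apart.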

How the data were processed

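RNA of sorted PB neutrophils was measured by Smart-seq2 and paired-end sequencing in 3 Ctrl and 3 LIP libraries, grouped by their labels. The authors deposited gene-level read counts as raw whole numbers, and FPKM values that the authors derived from counts by gene length and library total. Trimming used cutadapt 1.9, per the submitters' processing notes, with GRCm38. The aligner, counter and use of strand are not given in the sources used here, so 8 enzymes that overlap a gene expressed at 1 FPKM or more are uncertain. For 50 names on several rows, the row of higher mean FPKM was taken.

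Genes whose FPKM averaged 1 or more were tested on their counts by edgeR 4.0.16 (R 4.3.3, TMM, quasi-likelihood F test, no covariates) with Benjamini-Hochberg adjustment over 10440 genes. SE is the absolute log2 fold change over the root of F. Alternatives used DESeq2 1.42.0, limma 3.58.1 on log2(FPKM + 1) and log2(FPKM + 0.1), other scalings and filters, a replicate block and each library left out. The common biological coefficient of variation between libraries was 0.265, which holds both the spread between pools and that of amplification. Scripts were tested on simulated data. The members, gene lists and alternatives were chosen with earlier results of these data known. Named enzymes were, per name stem, the most abundant and up to 2 with the largest called change and no overlap, with 10 enzymes always named and enzymes called against the direction of their stem allowed, and per list of other chromatin genes the one with the largest called change.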

Additional observations from a re-analysis of the deposited data

How the results depend on the processing

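With library totals, 27 enzymes and 16 writers fell, 7 other chromatin genes rose and 44 fell, the medians were −0.64 (writers) and −0.34 (erasers), and *Kat5* (−0.26), *Setd3* (−0.14) and *Ezh1* (−0.19) changed sign. DESeq2 called 2 writers higher, with *Kdm6a* at 0.039 and *Setd2* at 0.031. Scaling on mature neutrophil markers called 82 genes of all higher and 9144 lower, 0 enzymes higher and 61 lower (32 writers and 29 erasers lower, 0 erasers higher), and 0 other chromatin genes higher and 82 lower, with medians of −2.08 (writers) and −1.78 (erasers). There *Kdm6b* (−0.61), *Kdm7a* (−0.51), *Kat5* (−1.70), *Hdac4* (−0.24), *Sirt7* (−1.34), *Sirt2* (−1.34), *Setd3* (−1.58), *Tet2* (−0.89), *Ezh1* (−1.62), *Hdac5* (−0.99), *Ep300* (−1.33) and *Sap30* (−0.76) changed sign; by construction this scaling subtracts the rise of the markers from all genes.

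Without a filter the medians were −0.28 (39 writers) and −0.23 (39 erasers), with *Kdm6a* at 0.026 and *Setd2* at 0.019. With filterByExpr they were −0.24 (36 writers) and −0.22 (39 erasers), with *Kdm6a* at 0.036 and *Setd2* at 0.029. The medians of the 2 sets were thus closer to each other than in the main fit. Without a filter *Hdac1*, *Kdm5a*, *Prmt1*, *Prmt2*, *Prmt7*, *Sirt2* and *Tet3* lost their calls. At 5 FPKM fewer genes are tested, and 1768 of all genes rose and 1869 fell, 4 enzymes rose and 4 fell (all erasers, 4 each way), 0 writers fell, 11 other chromatin genes rose and 14 fell, the writers' median was −0.094, and *Kat5* was −0.10. With limma on log2(FPKM + 1), 4271 genes of all, 28 enzymes, 17 writers and 38 other chromatin genes fell, 7 of the latter rose, the erasers' median was −0.22, and *Kat5* (−0.21), *Setd3* (−0.10) and *Ezh1* (−0.16) changed sign. On log2(FPKM + 0.1), 5 enzymes rose, all erasers, 15 writers and 38 other chromatin genes fell, 6 of the latter rose, the medians were −0.58 (writers) and −0.29 (erasers), and *Kat5* (−0.23), *Setd3* (−0.11) and *Ezh1* (−0.19) changed sign. The causes were otherwise not tested.

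With the replicate block, 2724 genes of all rose and 2822 fell, 8 enzymes rose and 18 fell (0 writers higher and 10 lower), and *Kdm6a* was 0.049. Same-numbered libraries came from different mice and their deviations correlated at 0.013, 0.052 and 0.030, so the numbers were not read as pairs. Leaving out each library gave 0 to 1 writers higher, the 1 without Ctrl replicate 3, 6 to 10 writers lower, 7 to 8 erasers higher and 6 to 7 lower, medians of −0.41 to −0.19 (writers, the latter without Ctrl replicate 3) and −0.16 to 0.084 (erasers, the former without Ctrl replicate 2), and log2 fold changes on both sides of 0 for *Kat5* (−0.072 to 0.16), *Kdm6a* (−0.22 to 0.39), *Setd2* (−0.21 to 0.15), *Kmt2e* (−0.14 to 0.029) and *Ezh1* (−0.089 to 0.39), none of which passed the main test. Over the named genes and alternatives, 408 values kept direction and call, 20 gained and 36 lost a call in the same direction and 39 changed sign.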
